A study of Mus musculus with 2 samples.

Results

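Atf3-positive microglia were microglial nuclei with at least 1 unique molecular identifier (UMI) of Atf3, and they were set against microglial nuclei with 0 Atf3 UMIs. The deposited labels placed 4028 of 8171 nuclei among microglia and perivascular macrophages and outside the authors' neuron subset, and 267 of these 4028 nuclei were Atf3-positive. For each positive nucleus 1 negative nucleus of the same library and the same depth decile (by UMIs) was drawn at random, which gave 267 matched negatives and left 3494 negatives undrawn. Both sides were chosen by their Atf3 counts, so Atf3 values are described and given no test.

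The nuclei were GFP-positive nuclei sorted from ipsilateral cortex 7 days after mild traumatic brain injury (mTBI) and profiled by droplet single-nucleus RNA sequencing. The mice were Atf3-CreER:+/wt; SUN-SfGFP:+/wt animals over 7 weeks of age given tamoxifen on days 4 and 5 after injury. A male and a female library were made, each from nuclei of 4 pooled animals, so there are 2 replicates and no value for a single animal. No uninjured library was among the samples. The reporter marks the nuclear envelope of cells in which the Atf3 gene drove Cre while tamoxifen was present, whereas an Atf3 UMI records RNA present at collection.

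Microglia are the resident macrophages of the brain. In the undisturbed brain they express a homeostatic set of genes that includes P2ry12, Tmem119 and Cx3cr1, and beside damage or debris they can take on a disease-associated state marked by lysosomal, lipid-handling and adhesion genes such as Gpnmb, Lgals3 and Lpl. ATF3 is a basic leucine zipper transcription factor of the ATF/CREB family that many stresses induce, known in neurons as a marker of axonal injury and in macrophages as a regulator of inflammatory genes.

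The homeostatic microglia list of 21 genes, used to check the cell label, took between 10026 and 11808 CPM (UMIs scaled to a common total) in the 4 sums of positive and matched negative nuclei, and 1023 and 1329 CPM in male and female neurons. Xist gave 1 UMI in male and 13069 in female microglia and Uty 399 and 1, although a label of the female library reads male. The libraries shared 1 barcode sequence in the deposited table and 0 among microglia. Male positives summed to 108323 UMIs and female positives to 964929, and their matched negatives to 102807 and 952825. Median depth per nucleus was 1716 UMIs in male positives against 1695 in their negatives, and 4030.5 against 3992.5 in female nuclei. The reporter transcript gave 3 UMIs in male positives and 0 in male negatives, and 11 and 7 in female nuclei.

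Atf3 RNA was sparse in microglia. In the male library 55 of 1690 microglial nuclei were positive and in the female library 212 of 2338 (9.07%, exact Clopper-Pearson 95% interval 7.93 to 10.3, against 3.25%, 2.46 to 4.22, in the male), a mean of 6.16% ± 4.11 (SD, n = 2 libraries). Intervals cover counting error alone. Just inside the threshold, 45 male and 168 female positives had exactly 1 Atf3 UMI, and 10 and 44 had 2 or more, with a maximum of 3 and 10. The share was higher in the deepest than in the shallowest decile, at 7.10% against 1.18% in male and 24.4% against 3.86% in female microglia. It did not climb at every step: male decile 4 stood at 0.592%, and female decile 5 at 5.13% after 5.98% in decile 2. With nuclei thinned to 1000 UMIs, which left out the 453 male and 16 female nuclei below that depth, the shares were 2.10% (1.38 to 3.06, 26 of 1237 nuclei) and 2.71% (2.09 to 3.46, 63 of 2322), and these intervals overlapped.

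**Figure D1:**
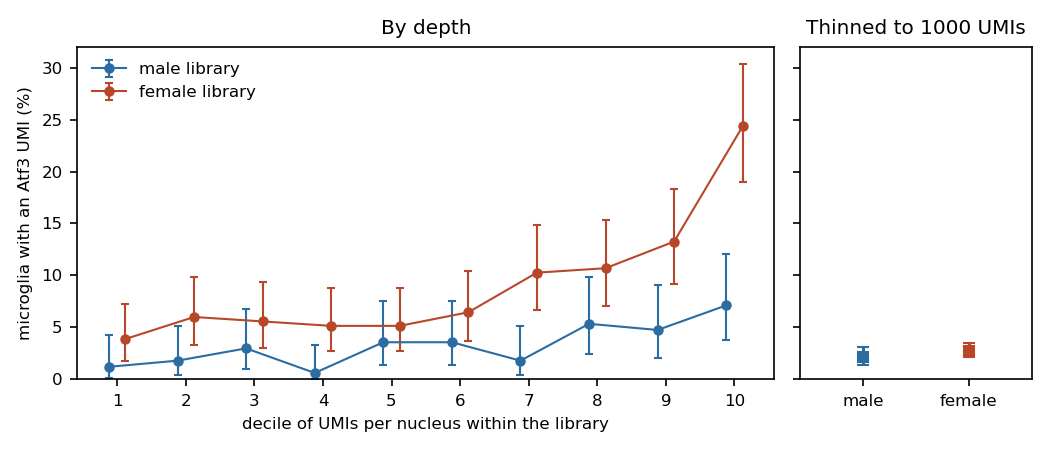
Percent of microglial nuclei with at least 1 Atf3 UMI against depth decile (left, 95% Clopper-Pearson intervals as bars) and after thinning nuclei to 1000 UMIs, with 453 male and 16 female shallower nuclei left out (right), for the male and the female library. The share is highest in the deepest decile of each library, 7.10% and 24.4%, and the thinned shares of 2.10% and 2.71% have overlapping intervals.

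Neurons of the authors' subset carried the gene more often than microglia at equal depth. At 1000 UMIs, with shallower nuclei left out, 11.1% of male (9.49 to 12.98) and 14.2% of female neurons (12.2 to 16.4) were positive, above the microglial intervals in each library. Nuclei of the vascular and leptomeningeal class had shares of 1.82% (0.221 to 6.41) and 3.11% (1.02 to 7.10), and nuclei labelled unknown 0 of 213 (up to 1.72) and 0.592% (0.0150 to 3.25), all overlapping the microglial intervals. Astrocytes had 0 of 52 (up to 6.85) and 1.61% (0.0408 to 8.66). Nuclei with a cortical L6 IT neuron label outside that subset, 372 and 134 in number and with median depths of 677 and 906 UMIs, had 6.67% (1.40 to 18.3, 3 of 45) and 0 of 53 (up to 6.72), also overlapping the microglial intervals. Median depths before thinning were 1298.5 and 3012.5 UMIs in microglia, 3591 and 8501.5 in neurons, 3424 and 5120 in the leptomeningeal class and 3314 and 7918.5 in the unknown class. Since all nuclei were sorted by an Atf3-driven reporter, no class is known to lack the gene. Overlap of intervals is no test, and no difference between microglia and these 4 classes was tested. The unknown class had a lower share than microglia in both libraries. Before thinning, Atf3 stood at 4.25 and 5.05 CPM in the unknown class and at 6.16 and 18.9 CPM in the leptomeningeal class. Astrocytes had 0 and 21.8 CPM and the L6 IT class 49.0 and 18.7 CPM. Barcodes with at most 100 UMIs, taken as empty droplets, held Atf3 at 39.3 and 73.9 CPM, above the 26.5 and 35.9 CPM of all microglia. The ratio of Atf3 to Snap25 UMIs was 0.0559 and 0.118 in empty droplets, 0.166 and 0.342 in microglia and 0.103 and 0.195 in neurons. The part of free RNA was not tested. Single Atf3 UMIs from free RNA and from the nucleus itself cannot be told apart.

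Between positive and matched negative sums, paired by library, edgeR's quasi-likelihood test called 24 genes higher (0.359% of the 6688 tested) and 12 lower (0.179%) in Atf3-positive microglia at a Benjamini-Hochberg adjusted p below 0.05. The galectin gene Lgals3, the scaffold protein gene Iqgap1 and the membrane repair gene Myof were higher in positives, by 1.10, 1.16 and 1.41 on the log2 scale, and these 3 were called again with both other draws of negatives (seeds 2 and 3). The disease-associated gene Gpnmb was called higher, at 1.06, and the phosphatase gene Ubash3b lower, at -0.64, but with seed 2 they stood at 0.47 and -0.44 and were not called. All calls were lost (0 higher and 0 lower) in 7 of 15 alternatives: with DESeq2 (35 genes at an unadjusted p below 0.05), without the pairing by library (110), with negatives matched by deposited cluster too (307), with positives of at least 2 UMIs (158), without nuclei holding Snap25 or Ecel1 (302), without the 25% most neuronal nuclei (456), and without each gene's richest nucleus on each side of each library (262), the last chosen after seeing the data. The comparison as reported had 413 genes at an unadjusted p below 0.05, and edgeR was used in all of these but the first. The sign of the 36 called genes stayed the same in every alternative that tested them, although these share the positive nuclei. Median log2 fold changes of the 24 and of the 12 were 1.04 and -0.64. Over those of the 36 still tested in these 7 alternatives they were 0.52 and -0.42 with matching by cluster too, 0.72 and -0.55 without Snap25 or Ecel1 nuclei, 1.17 and -0.70 without the 25% most neuronal nuclei, 0.95 and -0.66 without the richest nuclei, 1.24 and -1.12 with at least 2 UMIs, 1.05 and -0.65 with DESeq2, and 0.98 and -0.67 without the pairing. Single genes were called in 2 to 8 of the 15 alternatives if higher and in 1 to 6 if lower. Nes, Slc7a11, St18 and Fgf1 met the minimum level of the filter (18.8 CPM in 2 sums) only through the side where they were high, so the filter set the direction in which each could be called, and they count among the 36 but their adjusted p is not given. With no filter Nes and St18 were called and Slc7a11 and Fgf1 were not. The choice of negatives also mattered: 13 of the higher genes and, of the lower, Fgf1 alone were called again with seed 2, and 20 and 8 with seed 3, where Fgf1 was not tested. The 13 were called with all 3 draws and no lower gene was. Igf1, Malat1, Slc7a11, Trps1, Fhit, Plxdc2 and Pwwp2a were called with neither other draw. Alcam, Cdk6, Gpnmb, Mdfic, Myo1e, Nes, Osbpl8 and the 8 lower genes were called with seed 3 and not with seed 2.

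**Figure D2:**
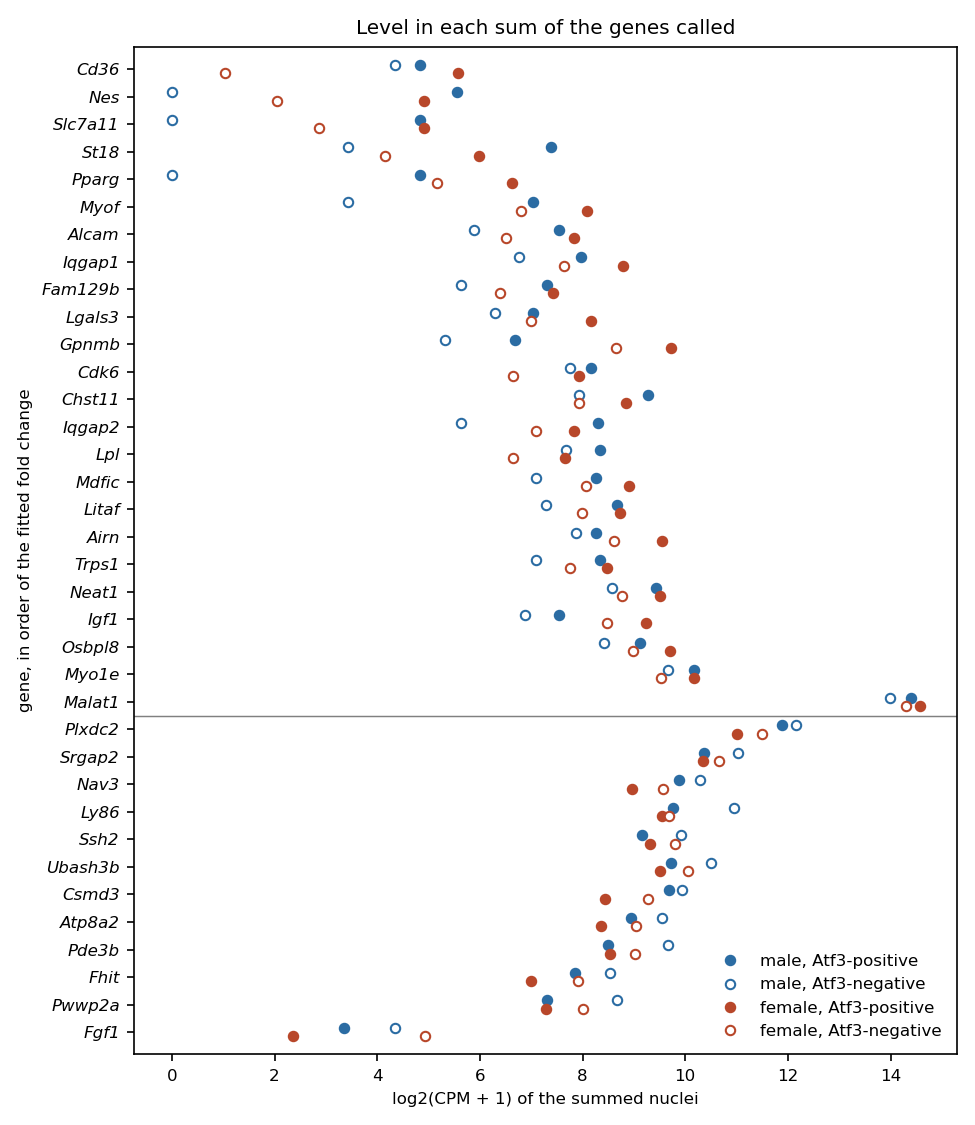
Level of each of the 36 called genes, as log2(CPM + 1), in the 4 sums: Atf3-positive and matched Atf3-negative microglia of the male and of the female library. In each library the positive sum lies above the negative sum for the 24 genes called higher and below it for the 12 called lower.

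**Figure D3:**
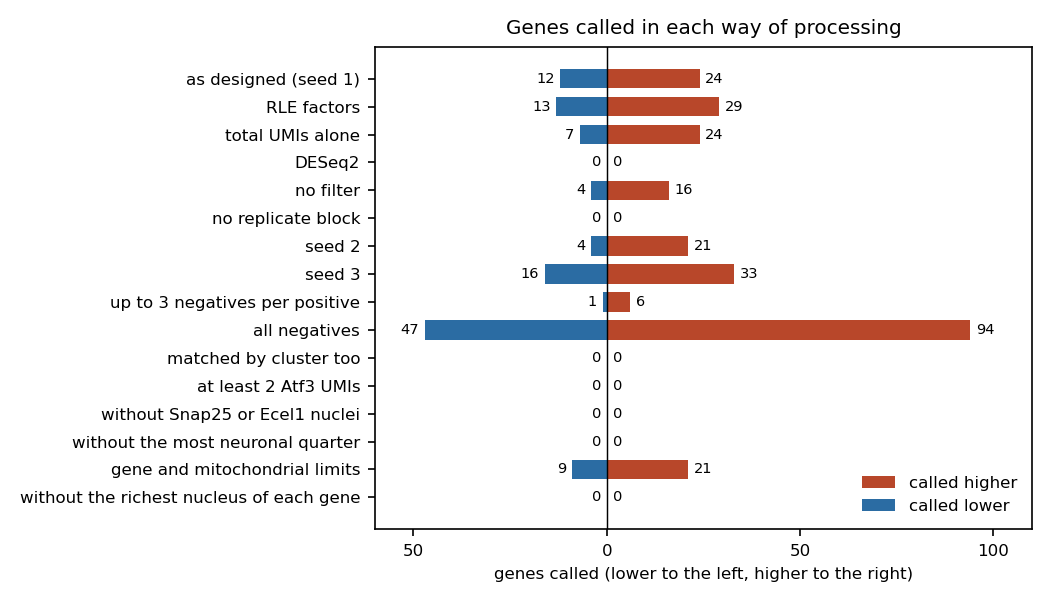
Number of genes called higher and lower in Atf3-positive microglia with the settings reported and with each alternative, as bars from 0. Counts run from 0 to 94 higher and from 0 to 47 lower, and 7 alternatives have no call.

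Of the disease-associated microglia list, 5 of the 18 tested genes were called higher and 0 lower, and 17 had a fold change above 0. Over all 6688 genes tested, 24 (0.359%) were called higher, 12 (0.179%) were called lower, 3414 lay above 0 and 3274 below. The counts of every list are to be read beside these. The disease-associated list's median log2 fold change was 0.45, 0.57 within male and 0.32 within female sums, beside 0.011 over all genes tested. The list's summed level was 6333 CPM in male positives and 4484 in male negatives, and 6514 and 4565 CPM in the female library. Lists and members were chosen with earlier results of these data known, so their counts describe and do not test. With negatives matched by cluster too the median was 0.13.

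Gpnmb (ENSMUSG00000029816, chr6:49036546-49070929, GRCm38) encodes a lysosomal and cell surface glycoprotein of phagocytes. Its level was 102 CPM in male positives and 38.9 in male negatives, and 838 and 402 CPM in the female library, so each positive sum was above its negative sum while the libraries differed more than the sides. The fold change was 1.06 on the log2 scale (SE 0.19, n = 2 libraries, edgeR adjusted p = 0.000776). In the female library 92 of 212 positive and 63 of 212 negative nuclei held a Gpnmb UMI, in the male library 5 and 3 of 55. With nuclei thinned to 1000 UMIs, 35.2% of female positives (28.8 to 42.1) and 14.7% of female negatives (10.2 to 20.2) held one, and in the male library 4.35% (0.531 to 14.8) and 0 of 48 (up to 7.40). The call depended on the negatives: it was kept in 6 of 15 alternatives, and the fold change was 0.47 with seed 2, 0.99 with seed 3, 0.46 with 3 negatives per positive and 0.43 with matching by cluster too. Over the 15 alternatives the fold change lay between 0.34 and 2.47. Male matched negatives were below all male negatives for this gene, 38.9 against 80.1 CPM.

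Lgals3 (ENSMUSG00000050335, chr14:47367751-47386160), encoding the glycan-binding protein galectin-3, stood at 129 CPM in male positives against 77.8 in negatives and at 285 against 127 CPM in the female library (log2 fold change 1.10, SE 0.24, adjusted p = 0.00924). Lpl, which encodes lipoprotein lipase, had 323 against 204 CPM in male and 201 against 99.7 CPM in female sums. Its fold change was 0.90 (SE 0.24, adjusted p = 0.0495), close to the threshold. Igf1, a growth factor gene, had 185 against 117 CPM and 600 against 354 CPM (0.74, SE 0.19, adjusted p = 0.0421), and its call was kept in 3 of 15 alternatives and with neither other draw. Its fold change was 0.59 with seed 2 and 0.56 with seed 3. Myo1e, a class I myosin gene, was the list's most abundant called member, with 1154 against 807 CPM and 1153 against 736 CPM (0.59, SE 0.14, adjusted p = 0.0149). Its abundant members Apoe, Ctsb and Ctsd did not pass the test, with log2 fold changes of 0.21, 0.42 and 0.20. Thinned to 1000 UMIs, 24.8% of female positives (19.1 to 31.2) and 11.4% of negatives (7.43 to 16.5) held Lgals3, and in the male library 13.04% (4.94 to 26.3) and 8.33% (2.32 to 19.98), intervals that overlapped. Of the 27 called genes compared at this depth, separate intervals were found for 0 in male and for 6 in female nuclei. These genes were called on the same nuclei and the intervals cover counting error alone, so they describe and are no further test.

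Of the lipid and cholesterol handling list, 2 of the 9 tested genes were called higher and 8 lay above 0, beside 24 and 3414 of all 6688 genes tested. The median log2 fold change was 0.33 (0.13 with negatives matched by cluster too). Summed levels were 2474 and 1975 CPM in male positives and negatives and 3456 and 3034 CPM in female ones. Pparg, a nuclear receptor of lipid metabolism, had 3 UMIs in male positives and 0 in male negatives, and 97.4 against 34.6 CPM in the female library (1.55, SE 0.40, adjusted p = 0.0471). Cd36, a scavenger receptor for oxidised lipid, rested on few nuclei. It had 3 and 2 UMIs in the male library and 45 and 1 in the female one, and 34 of the 45 lay in 1 nucleus, without which the female positives stood at 11.4 CPM (fitted log2 fold change 3.77, SE 0.71, adjusted p = 0.00127). Plin2, a lipid droplet coat gene, missed the threshold at 1.07 (SE 0.35, adjusted p = 0.25), and the cholesterol exporter gene Abca1, the most abundant member, stood at 0.13.

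Higher calls outside those lists included Iqgap1, Iqgap2, Myof, Alcam and Nes. Iqgap1 (ENSMUSG00000030536, chr7:80711583-80825974), a scaffold of actin and small GTPase signalling, had 249 CPM in male positives against 107 in negatives and 443 against 197 CPM in the female library (1.16, SE 0.20, adjusted p = 0.000776). In male positives 10 of its 27 UMIs were in 1 nucleus, and at 1000 UMIs 13.04% of male positives (4.94 to 26.3) and 14.6% of male negatives (6.07 to 27.8) held it. Its relative Iqgap2 had 314 against 48.6 CPM and 226 against 136 CPM (1.01, SE 0.25, adjusted p = 0.0256). Myof (ENSMUSG00000048612, chr19:37899036-38043577), encoding the membrane repair protein myoferlin, had 129 against 9.73 CPM and 269 against 110 CPM (1.41, SE 0.26, adjusted p = 0.00127), and 9 of its 14 UMIs in male positives were in 1 nucleus. Without that nucleus the male positives stood at 46.2 CPM for Myof, and all male negatives stood at 41.1 CPM. Alcam, an adhesion molecule of the immunoglobulin family, had 185 against 58.4 CPM and 228 against 90.3 CPM (1.37, SE 0.26, adjusted p = 0.00149), with 9 of 20 UMIs of male positives in 1 nucleus. Its fold change was 0.58 with 3 negatives per positive. With matching by cluster too, Alcam stood at 0.47 and Iqgap2 at 0.37. Nes, encoding the intermediate filament nestin, had 5 UMIs in male positives and 0 in negatives, and 28 and 3 UMIs in the female library, 10 of the 28 in 1 nucleus (fitted log2 fold change 3.32, and 0.39 with matching by cluster too).

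Chst11, a chondroitin sulfotransferase gene, had 619 against 243 CPM in male and 460 against 242 CPM in female sums (1.02, SE 0.18, adjusted p = 0.000776), with 17 of 67 male and 68 of 444 female positive UMIs in 1 nucleus each. In all male microglia it stood at 342, 286 and 1754 CPM with 0, 1 and 2 or more Atf3 UMIs. Cdk6, a cell cycle kinase gene, had 286 against 214 CPM and 245 against 98.7 CPM (1.06, SE 0.23, adjusted p = 0.00924), and stood at 0.54 with seed 2, where it was not called, and at 0.37 with matching by cluster too. Fam129b had 157 against 48.6 CPM and 171 against 82.9 CPM (1.12, SE 0.28, adjusted p = 0.0404). The proliferation list held no call: 2 of its 10 genes were tested, at a median of -0.56, and the list had 9 and 4 UMIs in male positives and negatives and 61 and 63 in female ones. The remaining higher calls fell outside the naming rule and were picked after their values were seen. They were Mdfic (0.89), Litaf (0.86), Airn (0.82), Trps1 (0.79), Neat1 (0.77) and Osbpl8 (0.69), with adjusted p from 0.00495 for Neat1 to 0.0421 for Trps1, each higher in positives of both libraries. They were called on these same sums, which favours agreement of the libraries. With matching by cluster too they stood at 0.57, 0.76, 0.86, 0.18, 0.44 and 0.32 in the same order, none called. Airn is a long non-coding RNA that overlaps Igf2r on the other strand. The sources do not state how strand was counted, and the assignment of reads between these genes was not examined.

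Fold changes of the 12 lower genes ran from -2.55 for Fgf1 to -0.41 for Plxdc2. Plxdc2 (ENSMUSG00000026748, chr2:16356304-16755839), a transmembrane protein gene, had 3794 CPM in male positives against 4562 in negatives and 2054 against 2904 CPM in the female library (log2 fold change -0.41, SE 0.10, adjusted p = 0.0213). All male negatives stood at 3804 CPM, level with the male positives, and the call was kept in 1 of 15 alternatives. The fold change was -0.45 with seed 2, -0.40 with seed 3 and -0.19 with matching by cluster too. Ubash3b, encoding a phosphatase that damps tyrosine kinase signalling, had 849 against 1440 CPM and 725 against 1058 CPM (-0.64, SE 0.13, adjusted p = 0.00507). Ly86, encoding the MD-1 partner of a Toll-like receptor relative, had 868 against 1984 CPM and 745 against 825 CPM (-0.55, SE 0.14, adjusted p = 0.0435). All negatives stood at 1422 and 1005 CPM for Ly86, and 108 of the 719 UMIs of female positives were in 1 nucleus. Without the richest nucleus of each side the female sums stood at 633 against 788 CPM. Srgap2, which shapes membrane protrusions, had 1320 against 2091 CPM and 1292 against 1606 CPM (-0.46, SE 0.12, adjusted p = 0.0421). Pde3b, a cyclic nucleotide phosphodiesterase gene, had 360 against 807 CPM and 371 against 521 CPM (-0.70, SE 0.17, adjusted p = 0.0242). Pwwp2a, a chromatin protein gene, had 157 against 409 CPM and 154 against 258 CPM (-0.91, SE 0.21, adjusted p = 0.0219). All male negatives stood at 249 CPM for Pwwp2a, its call was kept in 3 of 15 alternatives, and its fold change was -0.45 with seed 2, -0.56 with seed 3 and -0.44 with matching by cluster too. Fhit, Atp8a2, Csmd3, Ssh2 and Nav3 lay between -0.86 and -0.55, with adjusted p from 0.0245 to 0.0421, each lower in positives of both libraries, on whose sums they were called. With matching by cluster too they stood at -0.47, -0.38, -0.27, -0.49 and -0.13 in the same order, none called. Fgf1, a growth factor gene, rested on 4 UMIs in female positives against 28 in female negatives, and on 1 against 2 in the male library (fitted log2 fold change -2.55), and was tested in 8 of 15 alternatives.

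Levels by Atf3 UMIs (0, 1, and 2 or more) were taken from the same nuclei on which the genes were called, so a difference between 0 and more was built in and the order is a description alone. In the female library Gpnmb stood at 347, 659 and 1354 CPM, Lgals3 at 98.8, 211 and 498 CPM and Igf1 at 270, 464 and 992 CPM. Plxdc2 stood at 2894, 2271 and 1430 CPM and Ly86 at 1005, 821 and 526 CPM in the same order. Genes not called also differed in these female nuclei: mt-Co1 stood at 781, 1201 and 2467 CPM, mt-Co3 at 817, 1194 and 2081 CPM, the border macrophage marker F13a1 at 56.7, 61.5 and 366 CPM and Gm42418 at 221442, 213692 and 154630 CPM. Female median depth was 2936, 3769 and 5331 UMIs in 2126, 168 and 44 nuclei, and the part of depth and of these genes was not tested. The male library did not repeat every order: its 10 nuclei with 2 or more Atf3 UMIs held 0 UMIs of Gpnmb and of Igf1, and Plxdc2 stood at 3804, 3508 and 4771 CPM, while Lpl stood at 150, 274 and 489 CPM and Myo1e at 692, 943 and 1876 CPM. In male nuclei mt-Co1 and mt-Co3 ran the other way, at 702, 549 and 40.8 CPM and at 728, 537 and 489 CPM.

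Shown are the promoters of Atf3 itself and of each called gene with a match to TGANTCA or TGATGNAA, motifs of basic leucine zipper factors: Gpnmb, Igf1, Mdfic and Slc7a11, called higher, and Ubash3b, called lower. Slc7a11, a cystine transporter gene and the single call of the integrated stress list, had 3 UMIs in male positives and 0 in negatives and 28 and 6 UMIs in the female library, 13 of the 28 in 1 nucleus (fitted log2 fold change 2.30), and its call was lost with both other draws. Each sequence runs from 250 bases before to 50 after the RefSeq start on the GRCm38 build, 5′ to 3′ on the gene's strand, at chr1:191183284-191183583 (minus) for Atf3, chr6:49036268-49036567 (plus) for Gpnmb, chr10:87860861-87861160 (plus) for Igf1, chr6:15720411-15720710 (plus) for Mdfic, chr3:50443564-50443863 (minus) for Slc7a11 and chr9:41158013-41158312 (minus) for Ubash3b, the start of the pair listed for it that holds the match. Capitals mark matches on either strand, and the motifs and promoters were chosen after values and matches were seen.
Atf3: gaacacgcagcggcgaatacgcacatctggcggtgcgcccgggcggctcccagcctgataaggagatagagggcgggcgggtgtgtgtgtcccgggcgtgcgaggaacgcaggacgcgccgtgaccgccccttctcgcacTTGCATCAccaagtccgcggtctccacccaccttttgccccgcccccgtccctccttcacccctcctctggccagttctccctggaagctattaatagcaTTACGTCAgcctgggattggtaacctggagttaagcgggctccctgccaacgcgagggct
Gpnmb: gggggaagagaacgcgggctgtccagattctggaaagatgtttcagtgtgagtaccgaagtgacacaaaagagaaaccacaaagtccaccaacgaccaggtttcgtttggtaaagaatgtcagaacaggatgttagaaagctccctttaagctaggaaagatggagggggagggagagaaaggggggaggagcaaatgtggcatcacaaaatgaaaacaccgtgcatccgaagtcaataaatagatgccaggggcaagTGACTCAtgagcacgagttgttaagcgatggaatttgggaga
Igf1: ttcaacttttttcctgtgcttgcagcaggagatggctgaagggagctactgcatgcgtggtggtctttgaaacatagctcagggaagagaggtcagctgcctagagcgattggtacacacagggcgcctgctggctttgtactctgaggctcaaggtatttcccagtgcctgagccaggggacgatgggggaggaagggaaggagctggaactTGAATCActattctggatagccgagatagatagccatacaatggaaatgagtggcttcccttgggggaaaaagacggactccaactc
Mdfic: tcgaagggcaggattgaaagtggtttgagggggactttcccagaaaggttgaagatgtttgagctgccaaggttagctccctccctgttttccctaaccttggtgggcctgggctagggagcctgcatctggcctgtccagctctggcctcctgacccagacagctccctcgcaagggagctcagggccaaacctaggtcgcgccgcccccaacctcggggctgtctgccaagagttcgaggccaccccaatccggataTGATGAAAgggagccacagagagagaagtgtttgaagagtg
Slc7a11: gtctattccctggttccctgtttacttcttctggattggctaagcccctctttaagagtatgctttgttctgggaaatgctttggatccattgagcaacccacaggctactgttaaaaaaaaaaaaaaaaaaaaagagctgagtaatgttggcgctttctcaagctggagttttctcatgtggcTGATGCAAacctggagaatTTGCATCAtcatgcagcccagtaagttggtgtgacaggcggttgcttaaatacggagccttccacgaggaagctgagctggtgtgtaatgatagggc
Ubash3b: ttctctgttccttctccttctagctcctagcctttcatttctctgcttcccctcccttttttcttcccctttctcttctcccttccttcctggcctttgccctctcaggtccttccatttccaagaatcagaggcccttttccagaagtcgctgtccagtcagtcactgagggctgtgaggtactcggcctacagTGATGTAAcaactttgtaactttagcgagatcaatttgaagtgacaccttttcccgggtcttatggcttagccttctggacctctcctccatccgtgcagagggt

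In the Atf3 promoter TTACGTCA began 10 bases before the start and TTGCATCA, the reverse strand of TGATGCAA, 110 bases before it. Gpnmb held TGACTCA 8 bases after the start, Igf1 TGAATCA 37 bases before it, and Slc7a11 TGATGCAA and its reverse 66 and 47 bases before it. Mdfic held TGATGAAA 9 bases after the start and Ubash3b TGATGTAA 55 bases before it. Of the 24 higher genes 19 had a promoter in the table, and of the 12 lower genes 6. A called gene counted as matched if any promoter listed for it held the letters, while the percents are of single promoters. The counts and percents are therefore not like for like, and no difference between them was tested. The AP-1 letters TGANTCA occurred in 2 of the 19, in 0 of the 6 and in 7.81% of 32851 promoters. The composite letters TGATGNAA occurred in 2 of the 19 (Mdfic and Slc7a11), in 1 of the 6 (Ubash3b) and in 3.97% of promoters, and TCANGTGA in 2 (Lgals3 and Osbpl8), in 1 (Pwwp2a) and in 4.18%. CACGTG, which a TCANGTGA match holds when N is C, occurred in 2 of the 19 (Cdk6 and Osbpl8), in 0 of the 6 and in 7.15%. TGACGTCA and TTACGTCA occurred in 0 of the 19, in 0 of the 6 and in 1.79% and 0.499% of all. Slc7a11, among the genes matched, met the filter only through the positive side. A match describes letters in this window and nothing about binding.

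The homeostatic list had no call. Of its 19 tested genes 18 had a fold change below 0, beside 3274 of all 6688 genes tested, and 14 were below 0 in both libraries. The list was given no test, and its median log2 fold change was -0.37 (male -0.23, female -0.41), or -0.24 with negatives matched by cluster too. Summed levels were 10386 CPM in male positives against 11808 in negatives and 10026 against 11758 CPM in the female library. The phagocytic receptor gene Mertk stood at -0.19, the phosphatase gene Inpp5d at -0.24 and Tgfbr1 at -0.097, none with an adjusted p under 0.826.

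Among the stress and immediate early lists Slc7a11 was the only gene called. The AP-1 and immediate early list, with 8 of 27 genes tested and 0 called, had a median of 0.62 that came from the female library (0.63, against -0.15 in the male), with summed levels of 406 and 370 CPM in male positives and negatives and 293 and 212 CPM in female ones. Jun, a partner of ATF3 in dimers, had 3 against 6 UMIs in the male library and 39 against 15 in the female one (0.81, adjusted p = 0.909), and Egr1 6 against 5 and 27 against 9 UMIs (1.13, adjusted p = 0.675). Klf6 and Btg2 stood at 0.13 and 0.26. The integrated stress and unfolded protein response list had 11 genes tested, 1 called higher (Slc7a11) and a median of 0.10, with summed levels of 849 and 837 CPM and 697 and 581 CPM. The stress sensor genes Atf6 and Eif2ak3 stood at 0.10 and 0.38, the chaperone gene Hspa5 at 0.075 and Cebpg at -0.088, none past the threshold.

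The heat shock list had 5 genes tested, 0 called and a median of 0.35, with 231 and 272 CPM in male positives and negatives and 164 and 132 CPM in female ones. Hsp90aa1, Hsph1, Hspa8 and Hspd1 stood at -0.17, 0.35, 0.35 and 0.48. The oxidative stress list had 6 tested, 0 called and a median of 0.30, with 600 and 603 CPM and 717 and 585 CPM. Nfe2l2, the regulator of antioxidant genes, stood at 0.33, Txnrd1 at 0.84, Sqstm1 at 0.26 and the oxidase subunit gene Ncf1 at -0.45. For the p53 and Gadd45 list, 4 genes were tested, 0 were called and the median was 0.58, with 360 and 379 CPM and 325 and 262 CPM. Gadd45a and Bax, genes of the damage response, stood at 1.22 and 1.01 on 3 and 0, 21 and 10 UMIs and 6 and 2, 29 and 15 UMIs, while Mdm2 and Trp53 stood at 0.024 and 0.14.

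Inflammatory and interferon genes showed no call in either direction. The NF-kB and inflammatory list had 9 genes tested, 4 above and 5 below 0 and a median of -0.011, with summed levels of 1043 and 837 CPM in male positives and negatives and 793 and 839 CPM in female ones. Nfkb1, Cd83, Rel and Relb stood at -0.063, 0.083, 0.31 and -0.034. The interferon-stimulated list had 14 tested, 12 of them below 0, beside 3274 of all 6688 genes tested. Its median was -0.32 (male -0.84, female -0.17), with 1874 and 2850 CPM and 1850 and 2051 CPM, and the median turned to 0.22 with negatives matched by cluster too. Parp14, Rnf213 and Trim30a stood at -0.64, -0.33 and -0.15, with adjusted p from 0.238 to 0.989. The complement and phagocytosis list had 13 tested, 5 above and 8 below 0 and a median of -0.070, with 3767 and 3035 CPM and 3452 and 3312 CPM. Arhgap24, a Rac GTPase-activating protein gene, came nearest the threshold at 0.49 (adjusted p = 0.0756), with 951 against 691 CPM and 1284 against 889 CPM, while C3ar1 stood at 0.62, C1qb at -0.32 and Dock2 at 0.037.

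**Figure D4:**
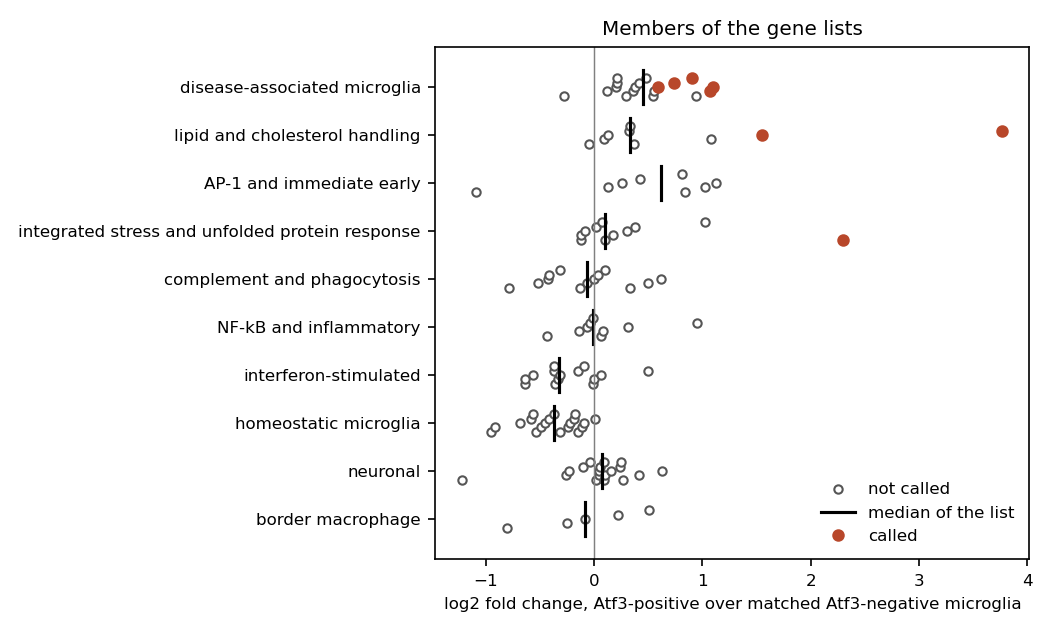
Log2 fold change, Atf3-positive over matched Atf3-negative microglia, of each tested member of 10 gene lists (points, called genes filled) with the list's median as a bar. The disease-associated list has 5 called genes and a median of 0.45, and the homeostatic list 0 called genes and a median of -0.37.

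Neuronal RNA was present on both sides. Snap25, a synaptic vesicle fusion gene, had 129 CPM in male positives against 87.5 in negatives (14 and 9 UMIs) and 80.8 against 81.9 CPM in the female library (78 and 78 UMIs), where neurons had 1008 and 866 CPM. Its log2 fold change was 0.091 (SE 0.32, adjusted p = 0.989). Ecel1, an endopeptidase-like gene of injured neurons, had 4 against 1 UMIs and 21 against 15 UMIs (0.62, SE 0.51, adjusted p = 0.967). The sign of both changed with the negatives chosen. Over the whole neuronal list of 20 genes, 18 were tested, 0 were called, 13 lay above 0 and the median was 0.074. Summed levels were 9869 CPM in male positives against 7519 in negatives and 5325 against 5205 CPM in the female library, with neurons at 70829 and 64108 CPM, Nrxn3 or Rbfox1 the most abundant, Gad2 at 0 on both male sides and Gad1 at 0 in male positives. All Atf3-negative microglia, drawn or not, stood at 9553 CPM in the male library, near the positives, and at 6396 CPM in the female one, above them. Of 143 Kcnip4 UMIs in male positives 70 were in 1 nucleus, and Nrxn3, Rbfox1, Meg3 and Kcnip4 stood at 0.42, 0.16, 0.27 and 0.047. The injured neuron list had 4 tested, 0 called and a median of 0.022, with 332 and 311 CPM and 142 and 124 CPM, Rest or Stmn4 or Gap43 the most abundant and Gal at 0 in all 4 sums.

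Lists of markers of other glia and of blood and border cells each summed to less than the homeostatic list in all 4 sums. The astrocyte list had 5 tested, 0 called and a median of -0.37, with 369 and 447 CPM in male positives and negatives and 238 and 338 CPM in female ones, mostly Slc1a3, with Gja1 at 0 in 3 of the 4 sums. The oligodendrocyte list had 3 tested and St18 called higher, at a median of 0.54 (male 1.17, female 0.14, and -0.048 without Snap25 or Ecel1 nuclei) and with 443 and 214 CPM and 194 and 151 CPM. St18, a zinc finger gene, had 18 against 1 UMIs in the male library, 11 of the 18 in 1 nucleus, and 60 against 16 in the female one (fitted log2 fold change 2.20), while the myelin gene Mbp stood at 0.042 and Mog was at 0 in all 4 sums. The oligodendrocyte precursor list had 2 tested, 0 called and a median of 0.27, with 185 and 136 CPM and 152 and 136 CPM, mostly Cspg4 or Tnr, and Pdgfra at 0 in all 4 sums. The border macrophage list had 5 tested, 0 called and a median of -0.084, with 406 and 545 CPM and 958 and 945 CPM, mostly Stab1. Its defining markers Mrc1, Cd163 and F13a1 were at 0 on both male sides, and F13a1 had 135 and 140 UMIs on the female sides, 95 of the 140 in 1 nucleus. In 3 alternatives F13a1 was called higher, at 1.79 with seed 2, 1.14 with all negatives and 2.07 with gene and mitochondrial limits, while it stood at -1.03 with matching by cluster too, and the list's median lay between -0.53 and 0.48 over the alternatives. No gene of the remaining lists was abundant enough to test: endothelial and mural markers gave 5 and 7 UMIs in male and 29 and 8 in female sums, leptomeningeal markers 0 and 40 and 5 and 10, monocyte and neutrophil markers 0 and 0 and 6 and 1, and T cell markers 0 and 0 and 0 and 4. The leptomeningeal list stood at 389 CPM in male matched negatives, with Bnc2 alone at 370 CPM, against 26.4 CPM in all male negatives. The part of these markers in the calls was not tested beyond the alternatives without neuronal nuclei.

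Malat1, a nuclear long non-coding RNA, was the call of the RNA quality list, with 21602 against 16312 CPM in male and 24243 against 20301 CPM in female sums (0.31, SE 0.06, adjusted p = 0.00306). Its call was kept in 2 of 15 alternatives and with neither other draw, where the fold change stood at 0.33 and 0.32. The list had 7 tested and 5 below 0, a median of -0.066, and summed levels of 166927 and 163510 CPM and 227527 and 235544 CPM, mostly Gm42418. Median signs of the NF-kB, neuronal, injured neuron, astrocyte, oligodendrocyte, oligodendrocyte precursor, border macrophage, RNA quality, p53, complement, proliferation and interferon lists turned in at least 1 alternative, and those of the AP-1, NF-kB, heat shock, oxidative stress, complement and proliferation lists differed between the libraries. Mitochondrial UMIs made up 0.244% and 0.321% of the male sums and 0.703% and 0.699% of the female ones.

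Across the authors' clusters, which were made from the same counts and so give a description alone, Atf3-positive nuclei were most frequent in clusters 9 and 13, where the disease-associated list was highest. In the female library 26.4% of cluster 13 (29 of 110), 18.7% of cluster 9 (25 of 134) and 13.8% of cluster 1 (93 of 672) were positive, against 3.49% of cluster 0 and 5.62% of cluster 5. In the male library these were 7.41% (2 of 27), 9.26% (10 of 108), 5.70% (22 of 386), 2.01% and 0.844%. The disease-associated list summed to 8025 and 7067 CPM in male and female cluster 13, 8224 and 6519 in cluster 9, 2973 and 2102 in cluster 0, and 2407 and 2068 in cluster 5. Cluster 18 did not follow this order: with the list at 5514 and 5348 CPM, it had 0 positives of 25 male nuclei and 5.00% of 40 female ones. Median depth was highest in cluster 13, at 2287 and 4822.5 UMIs, and stood at 4101.5 in female cluster 1, 4356 in female cluster 5 and 2671.5 in female cluster 9, and its part was not tested. Gpnmb was highest in cluster 13, at 1125 and 1726 CPM in 27 and 110 nuclei. Next came the larger cluster 1, at 154 and 660 CPM in 386 and 672 nuclei. Cluster 13 also had the border macrophage list at 1890 and 2676 CPM, against 652 and 861 CPM in cluster 1. Cluster 10, with the interferon list at 8378 and 9133 CPM and the disease-associated list at 4868 and 3906 CPM, held 0 positives of 119 male nuclei, an exact upper limit of 3.05%, and 7 of 123 female nuclei. Compared with matched negatives, female positives lay more in cluster 9 (11.8% against 3.30%) and cluster 13 (13.7% against 6.13%) and less in cluster 5 (6.60% against 14.2%), and male positives more in cluster 9 (18.2% against 5.45%) and less in cluster 5 (3.64% against 14.5%). Both lay less in cluster 0 (female 11.8% against 21.2%, male 23.6% against 29.1%). Cluster 2 held 9.09% against 1.82% in the male and 8.02% against 8.49% in the female library. Cluster 10 held 0 against 7.27% and 3.30% against 4.72%.

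**Figure D5:**
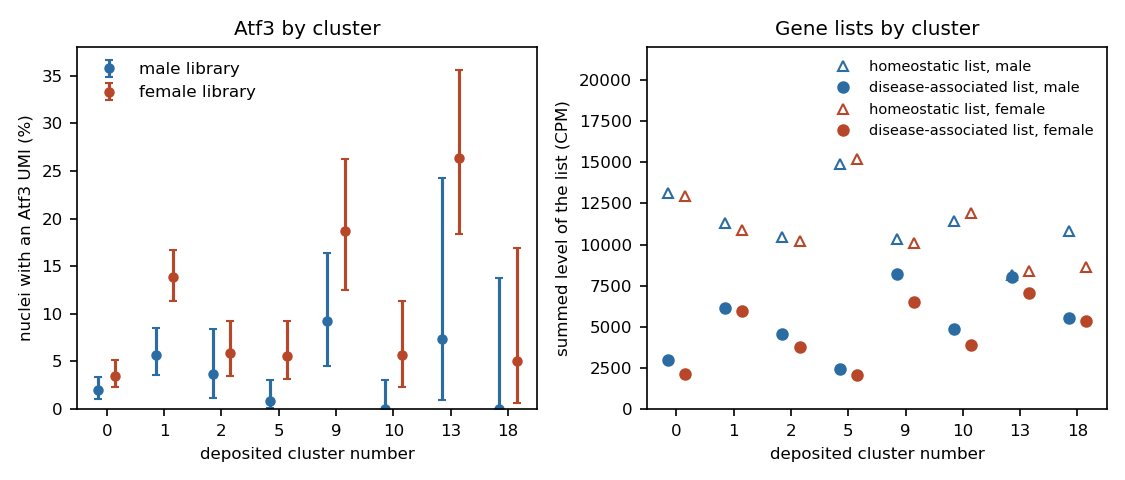
Left, percent of microglial nuclei with at least 1 Atf3 UMI in each deposited cluster, with 95% Clopper-Pearson intervals, per library. Right, summed CPM of the homeostatic and disease-associated lists in the same clusters; clusters 9 and 13 have the highest disease-associated sums and, in each library, the highest Atf3-positive shares.

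Whether the change with Atf3 detection differed between microglia and neurons was tested as an interaction over 8 sums. edgeR called 60 of 11043 genes (0.543%), 40 with a change more positive in microglia and 20 with one more negative. The genes named here were picked for their change in the same microglial sums, which favoured a difference from neurons. Neurons were matched by subclass as well as depth, and microglia by depth alone, so the changes compared were not matched alike. With microglia matched by cluster too, the microglial changes were 0.47 for Alcam, 0.46 for Chst11, 0.78 for Iqgap1 and 0.37 for Iqgap2, none called. The interaction was not tested with that matching. Alcam was higher with Atf3 in microglia and lower in neurons (1.35 and -0.85, difference 2.20, SE 0.27, adjusted p = 1.3e-11). Chst11 (0.99 and -0.13, adjusted p = 0.000171), Iqgap1 (1.15 and 0.069, adjusted p = 0.000394) and Iqgap2 (0.92 and -0.13, adjusted p = 0.000952) also differed. No difference was detected for Gpnmb (1.05 and 0.53, adjusted p = 0.788), Neat1 (0.76 and 0.82, adjusted p = 0.982) or Ubash3b (-0.61 and -0.83, adjusted p = 0.914), which does not show that they act alike. Without the pairing by library edgeR called 0 (328 at an unadjusted p below 0.05), and with the other draws 43 and 103, of which 30 and 42 were among the 60.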

How the data were processed

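Male and female libraries of GFP-positive nuclei were analysed from the deposited files. UMI matrices hold counts per gene and barcode, made by the authors with Cell Ranger (version 3.1.0 in one source, 7.0.1 and 7.0.0 in the file headers) against a GRCm38 pre-mRNA reference, and the deposited table gives UMI totals as counts, the mitochondrial share in percent, and other values (clusters and labels mapped by the authors in Seurat onto a motor cortex reference). The members and lists were chosen with earlier results of these data known. Negatives were drawn with seed 1 within 10 depth classes per library.

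UMIs were summed per side and library, since nuclei are not replicates, and the library paired the sums because both sides came from the same pool of animals. Genes passing filterByExpr (minimum count 10) were fitted in edgeR 4.0.16 (R 4.3.3, limma 3.58.1, data.table version 1.17.8) with TMM factors, library as block and the quasi-likelihood test, Benjamini-Hochberg adjusted over all genes tested at 0.05. Residual degrees of freedom came from 4 sums. The procedure was tested on simulated data, as sums with a fixed dispersion. These held no single nuclei and no draw of negatives, so that test says nothing of how the calls depend on either. Single-library folds used a prior count of 2. Named genes were the 15 with the largest called change per direction that moved alike in both libraries, called list members, and up to 4 most abundant members of each list. Neurons were matched within library, subclass and depth, and 237 positive neurons without a match were left out, a step not set out in the design. Alternatives were RLE factors, total UMIs, DESeq2 1.42.0, no filter, no replicate block, other draws (seeds 2 and 3), 3 or all negatives, matching by cluster, at least 2 Atf3 UMIs, leaving out neuronal nuclei, limits of 6000 genes and 5% mitochondrial UMIs, each library alone, and, added after seeing the data, no richest nucleus. With matching by cluster, 8 positives had no match but were kept, against 53 male and 206 female negatives. No doublet caller was run. Shares and intervals were computed in Python 3.11.15 (numpy 2.4.6, scipy 1.17.1, pandas 2.3.3) and drawn in matplotlib 3.10.9. Gene positions came from GENCODE vM21 and promoters from RefSeq, and the 6 promoter motifs were chosen after values were seen.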

Additional observations from a re-analysis of the deposited data

Results flagged for a closer look

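The log2 fold change of Snap25, Atf3-positive over matched Atf3-negative microglia, differed in sign between the 2 libraries: it was 0.52 in the male library, on 14 against 9 UMIs, and -0.032 in the female library, which was close to level at 78 against 78 UMIs. The difference between the libraries was not tested, since each gives 1 value.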

How the results depend on the processing

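With 2 libraries and 4 sums the test rests on few residual degrees of freedom, and 55 male positives with 108323 UMIs limit the male values. Calls changed with the negatives drawn and with the richest nucleus left out, and no cause of a move was tested. Fewer genes were tested with at least 2 Atf3 UMIs (2996) than in the comparison reported (6688).

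Against 24 higher and 12 lower genes, the counts were 0 and 0 with DESeq2, without the replicate block, with cluster matching, with at least 2 Atf3 UMIs, without Snap25 or Ecel1 nuclei, without the 25% most neuronal nuclei and without the richest nucleus. They were 6 and 1 with 3 negatives and 94 and 47 with all negatives, and the lower count was 7 with total UMIs alone, 4 with no filter and 4 with seed 2. The interaction count of 60 became 0 without the replicate block and 103 with seed 3. The mean share of 6.16% became 1.24% with at least 2 Atf3 UMIs.

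Snap25 (0.0912) moved to -0.12 with seed 2, -0.0701 with 3 negatives, -0.42 with all negatives, -0.18 with cluster matching, -0.0929 without the 25% most neuronal nuclei and -0.16 with gene and mitochondrial limits, and lay between -0.0319 and 0.52 in single libraries. Ecel1 (0.62) moved to -0.0177 with seed 2, -0.0372 with all negatives and -0.83 without the 25% most neuronal nuclei, and lay between 0.38 and 1.54 in single libraries. F13a1 (-0.0838) became 1.79 with seed 2, 1.14 with all negatives and 2.07 with gene and mitochondrial limits, and was called there.

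The following are list medians of log2 fold change, with the value reported in parentheses. Homeostatic microglia (-0.37) moved to -0.24 with cluster matching and lay between -0.41 and -0.23 in single libraries. Disease-associated microglia (0.45) moved to 0.13 with cluster matching, 0.66 with 2 Atf3 UMIs, 0.26 with no Snap25 or Ecel1 nuclei. AP-1 and immediate early (0.62) lay between -0.15 and 0.63 in single libraries. Integrated stress and unfolded protein response (0.10) moved to 0.12 with total UMIs alone, 0.00335 with DESeq2, 0.26 with no filter, 0.13 with no replicate block, 0.12 with seed 2, 0.35 with seed 3, 0.11 with 3 negatives, 0.20 with all negatives, 0.19 with cluster matching, 0.27 with 2 Atf3 UMIs, 0.37 with no Snap25 or Ecel1 nuclei, 0.42 with no 25% most neuronal nuclei, 0.26 with gene and mitochondrial limits and lay between 0.21 and 0.22 in single libraries. NF-kB and inflammatory (-0.0112) lay between -0.0766 and 0.41 in single libraries. Interferon-stimulated (-0.32) moved to 0.22 with cluster matching and lay between -0.84 and -0.17 in single libraries. Heat shock (0.35) moved to 1.55 with 2 Atf3 UMIs and lay between -0.22 and 0.42 in single libraries. Lipid and cholesterol handling (0.33) moved to 0.65 with DESeq2, 0.45 with seed 2, 0.88 with seed 3, 0.47 with all negatives, 0.13 with cluster matching, 0.54 with no Snap25 or Ecel1 nuclei, 0.48 with no 25% most neuronal nuclei and lay between 0.35 and 0.52 in single libraries. Oxidative stress (0.30) lay between -0.23 and 0.31 in single libraries. P53 and Gadd45 (0.58) moved to -0.39 with 2 Atf3 UMIs, -0.18 with no Snap25 or Ecel1 nuclei and lay between 0.55 and 1.59 in single libraries. Complement and phagocytosis (-0.0703) moved to 0.43 with 2 Atf3 UMIs and lay between -0.17 and 0.19 in single libraries. Proliferation (-0.56) moved to 3.48 with no 25% most neuronal nuclei and lay between -0.73 and 2.65 in single libraries. Neuronal (0.0738) moved to -0.23 with all negatives and lay between 0.00616 and 0.30 in single libraries. Injured neuron (0.0216) moved to 0.0363 with total UMIs alone, 0.0483 with DESeq2, -0.0276 with no filter, 0.19 with no replicate block, 0.0446 with seed 2, -0.23 with seed 3, 0.16 with 3 negatives, 0.0374 with all negatives, 0.10 with 2 Atf3 UMIs, 0.11 with no Snap25 or Ecel1 nuclei, 0.15 with no 25% most neuronal nuclei, 0.17 with gene and mitochondrial limits, 0.0078 with no richest nucleus and lay between 0.21 and 0.23 in single libraries. Astrocyte (-0.37) moved to -0.29 with DESeq2, -0.33 with no filter, -0.31 with no replicate block, -0.82 with seed 2, -0.45 with seed 3, -0.57 with 3 negatives, -0.67 with all negatives, 0.0783 with cluster matching, -1.34 with 2 Atf3 UMIs, -1.71 with no Snap25 or Ecel1 nuclei, -0.54 with no 25% most neuronal nuclei, -0.29 with gene and mitochondrial limits, -0.41 with no richest nucleus and lay between -0.48 and -0.45 in single libraries. Oligodendrocyte precursor (0.27) moved to -0.25 with all negatives and lay between 0.15 and 0.84 in single libraries. Border macrophage (-0.0838) moved to -0.53 with no filter, 0.31 with seed 2, 0.43 with seed 3, 0.21 with 3 negatives, 0.48 with all negatives, -0.31 with cluster matching, 0.45 with 2 Atf3 UMIs, -0.0181 with no Snap25 or Ecel1 nuclei, 0.40 with no 25% most neuronal nuclei, 0.28 with gene and mitochondrial limits, 0.41 with no richest nucleus and lay between -0.0837 and 0 in single libraries. RNA quality (-0.0658) moved to 0.43 with seed 2, 0.24 with seed 3, 0.31 with all negatives, 0.21 with no 25% most neuronal nuclei, 0.12 with gene and mitochondrial limits and lay between -0.29 and -0.0469 in single libraries.

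For the 104 other genes with a value, 1042 values under alternatives kept their direction and side of the threshold, 343 kept their direction and lost their call, and 3 kept it and gained a call. The remaining 100 values, of 38 genes, changed direction: 97 with no call on either side and 3, those of F13a1, with a call. In single libraries 185 values kept the direction and 23 changed it or stood at 0. With 1 library left out, no residual degrees of freedom remain, so those are values with no test.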
